A study of Mus musculus with 15 samples.

Results

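Mouse hematopoietic stem cells (HSCs) cultured with nifedipine were compared with HSCs cultured without it, gene by gene across the transcriptome. The libraries were taken by their titles, 4 labelled Nifedipine and 3 labelled Control, which is 7 of the 15 libraries of the study. All 7 came from HSCs of the bone marrow of wild type C57BL/6 mice aged 8 to 10 weeks, and each library was made from 100 sorted cells. After culture, cells within 3 divisions were sorted in both groups, so the controls too had been in culture and may have divided. The sources used here do not give the dose of nifedipine, its vehicle, the medium or the length of culture. The other 8 libraries are HSCs sorted fresh, 4 from untreated mice and 4 from mice given 5-fluorouracil (5-FU) 4 days before, and they serve here only for a comparison at the end. The labels do not say whether replicates came from separate mice or cultures, so p-values here reflect the spread among these libraries alone, and that spread may be technical.

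HSCs self-renew and produce every blood lineage, and most of them rest outside the cell cycle in the marrow. In culture with cytokines they enter division, build ribosomes and mitochondria, and lose part of their stem cell program. Nifedipine is a dihydropyridine drug that blocks voltage-gated calcium channels of the L-type, and calcium entering the cytosol acts through calmodulin, its kinases and the phosphatase calcineurin.

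Exon reads lay between 20145079 and 26673045 in the control libraries and between 17582453 and 22372771 in the nifedipine libraries, and 14206 to 14772 genes had a read in a library. On log2(CPM + 1) values, where CPM is the exon reads of a gene per 1000000 after scaling for library composition, the first principal component held 68.2% of the variance. Controls lay between -37.7 and -35 on it and nifedipine libraries between 24.4 and 30. The second component held 8.3% and set replicate 2 of each group, at -14.4 and -19.8, apart from the other libraries at 4.8 to 10.6. Correlations of log CPM were 0.988 to 0.9923 within groups and 0.9611 to 0.9699 between them. The 10 most abundant genes took 4.14% to 4.27% of the reads in controls and 3.53% to 3.84% with nifedipine.

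The cells carried the label's markers unevenly. Kit, the receptor for stem cell factor, Hlf and Mecom, transcription factors of long-term HSCs, and Meis1 stood at 179 CPM or more in every library. The surface proteins Procr (EPCR) and Ly6a (Sca-1) were low in controls, at 6.8, 7.3 and 4.58 CPM and 8.15, 7.25 and 7.02 CPM. Cd48, found on progenitors and absent from the most primitive HSCs, read 11.3, 19.8 and 16.8 CPM in controls and 2.71, 2.96, 6.88 and 5.56 CPM with nifedipine (log2 fold change -1.81, adjusted p = 2.93e-05). Flt3, a marker of lymphoid-primed progenitors, was at 1.7 CPM or less in every library. Markers of other blood and marrow cells were partly read and partly at 0. The genes with 0 reads in all 7 libraries number 7 of 32 on the granulocyte and monocyte list, 12 of 32 on the lymphoid list, 4 of 23 on the erythroid list, 11 of 25 on the mast cell and basophil list, 5 of 25 on the endothelial and stromal list and 0 of 23 on the megakaryocyte list. Among those at 0 are Mpo, Elane, S100a8 and S100a9 of neutrophils, Pax5, Ebf1 and Ms4a1 of B cells and Cd3e of T cells. Slc4a1 and Car1 of red cells, Tpsb2 of mast cells, Mcpt8 of basophils and Cxcl12 and Vcam1 of marrow stroma were at 0 too. Other markers of the same cells were read.

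The neutrophil protease Prtn3 read 4.23, 2.19 and 1.32 CPM in controls and 2.75, 1.15, 2.99 and 4.04 CPM with nifedipine, and the B cell receptor subunit Cd79b 6.37, 5.41 and 5.85 and 8.3, 5.7, 6.36 and 7.03 CPM. The heme enzyme Alas2 of red cells read 5.02, 6.89 and 4.29 and 5.86, 9.38, 6.03 and 7.39 CPM, and the stromal collagen Col1a2 4.23, 3.98 and 2.39 and 9.96, 3.62, 3.89 and 4.5 CPM. These 4 were picked after their values were seen. The summed level of the erythroid list was 1126 to 1128 CPM in controls and 762 to 781 CPM with nifedipine, and that of the endothelial and stromal list 717 to 779 and 936 to 995 CPM. The megakaryocyte list summed to 1392 to 1590 and 1716 to 1802 CPM, so these 3 sums did not overlap between the groups. The mast cell and basophil list summed to 439 to 522 and 503 to 593 CPM and the lymphoid list to 75.8 to 96.7 and 78.8 to 98.4 CPM, and both overlapped. The lists also hold genes that blood stem cells themselves use. The part of other cells in the results was not tested. In RNA from pooled cells, fewer cells of a type and less RNA per cell cannot be told apart.

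About as many genes were called different between the groups as were not, and most of those called changed by small steps. Of 12807 genes tested, 3298 (25.8%) were higher and 3098 (24.2%) lower with nifedipine at an adjusted p of 0.05 or less (edgeR's quasi-likelihood test with Benjamini-Hochberg adjustment, as for every adjusted p here), and 6411 were not called. The median fold of the called genes was 1.46, and the median log2 fold change of all tested genes was 0.02. Among changes of 2-fold or more, 933 were higher and 261 lower. Without reference to the test, all 4 nifedipine libraries lay above all 3 controls in 25.8% of the genes tested and below them in 25.5%.

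**Figure D1:**
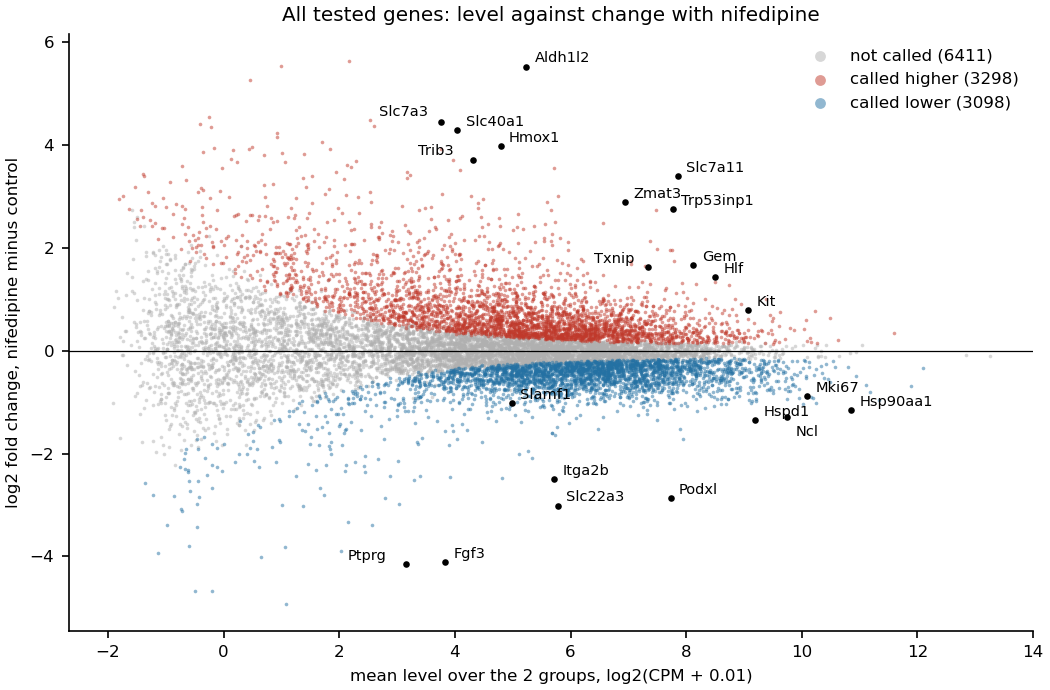
Each point is a tested gene, with its mean level over both groups on the x axis (log2 of CPM plus 0.01) and its log2 fold change, nifedipine minus control, on the y axis; 33 genes with 3 or fewer reads in a group are left out of the points but counted in the legend. The 3298 genes called higher reach further from 0 than the 3098 called lower, and the labelled falls of Ncl, Hspd1, Hsp90aa1 and Mki67 sit among the most abundant transcripts.

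The share of genes called lower grew with level, and the genes called higher were longer. Genes called lower had a median level of 72.6 CPM, against 33.3 CPM for those called higher and 16 CPM for those not called. Of the 2723 genes at a mean of 100 CPM or more, 44.2% were lower and 23.7% higher. At 10 to 100 CPM, 25.9% were lower and 29.7% higher. Of the 2760 genes at 1 to 10 CPM, 7.1% were lower and 23.7% higher, and under 1 CPM 4.37% and 10.5%. The median exon length was 4249 bases for genes called higher, 3121 bases for those called lower and 3360 bases for the rest. With an offset for exon length the counts were 3376 higher and 2954 lower. The reads behind a gene grow with its length and level, so these medians describe the calls and not the size of the changes.

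The 15 largest rises include enzymes, transporters and signalling proteins. Aldh1l2, a mitochondrial enzyme that oxidises 10-formyltetrahydrofolate (chromosome 10, 83487447 to 83534151, as for all coordinates here in mm10), stood at 1.58, 1.58 and 1.61 CPM in the controls and at 85.7, 75.1, 62.1 and 72.5 CPM with nifedipine. The lowest nifedipine value was far above the highest control, and the log2 fold change was 5.53 ± 0.15 (SE, adjusted p = 5.65e-14). Other rises among the 15 largest, on the same scale, were in Ddit4l, an inhibitor of mTORC1 signalling (4.49), the proteoglycan sulfatase Sulf2 (3.93), Sel1l3 (3.56), the protein glycosylation enzyme Galnt3 (3.42) and the organic anion exporter Abcc3 (3.37). Without control 2, Sel1l3 read 4.16 and Abcc3 3.99, and without control 3 Ddit4l read 5.15. Fat1, an atypical cadherin, rose by 3.51, and this became 2.88 without control 1, 5.31 without control 3 and 5.36 with limma-voom. The glucuronosyltransferase Ugt1a6b rose by 4.37, which became 3.72, 6.90 and 6.04 in the same settings.

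The 15 largest falls include surface proteins, transporters and a growth factor. Podxl, a sialomucin of blood vessels and early blood cells (chromosome 6, 31519493 to 31563937), read 354, 356 and 409 CPM in controls and 40.6, 52.1, 57.1 and 55.6 CPM with nifedipine (log2 fold change -2.86 ± 0.10, adjusted p = 4.63e-13). Slc22a3, an organic cation transporter, went from 107, 92.5 and 94.5 CPM to 11.5, 9.49, 12.4 and 15 CPM (-3.01 ± 0.12, adjusted p = 5.71e-12). The groups did not overlap for either gene. The growth factor Fgf3 fell from 26.9 ± 1.69 to 1.56 ± 0.605 CPM (mean ± SD, n = 3 and 4), and the receptor tyrosine phosphatase Ptprg from 16.8 ± 4.17 to 0.941 ± 0.772 CPM, with a log2 fold change of -4.15 that became -4.90 without nifedipine 3. Further falls among the 15 largest were in Clca3a1 (-2.98), Mfsd2b, an exporter of sphingosine 1-phosphate (-2.87), the sarcomere protein Myom1 (-2.52), the cholesterol exporter Abca1 (-2.47), the caveolar protein Sdpr (-2.46), the actin-bundling Pls1 (-2.43), the corepressor Rcor2 (-2.14), the ketone body enzyme Bdh1 (-2.11) and Nt5dc2 (-2.08). Without nifedipine 1, Clca3a1 read -4.11, and without control 2 it read -2.44.

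Genes driven by ATF4 mostly rose. ATF4 is a transcription factor whose translation goes up when amino acids are short or the initiation factor eIF2 is phosphorylated, and its targets import and make amino acids. It binds elements that join a C/EBP half-site to an ATF half-site, written here as TGATGNAA. Of 42 tested members of the ATF4 list, 27 were higher and 3 lower, with a median log2 fold change of 0.63 against 0.02 over all genes. The 3 lower members are the tRNA synthetases Wars, Aars and Eprs, and 1 member was lower with the read total behind the authors' RPKM values as library size in place of the scaled exon read total, a setting referred to below as the RPKM total. The call of Aars was lost there, and that of Eprs was lost there and without control 1, control 2 or nifedipine 4 (adjusted p = 0.0995, 0.0763 and 0.0539). The 250 bases before the start site of Chac1, Slc7a11 and Asns are shown because all 3 genes rose and hold the element (RefSeq, GRCm38.p6, 5′ to 3′ on the strand of the gene, capitals mark the element or its reverse complement).
Chac1: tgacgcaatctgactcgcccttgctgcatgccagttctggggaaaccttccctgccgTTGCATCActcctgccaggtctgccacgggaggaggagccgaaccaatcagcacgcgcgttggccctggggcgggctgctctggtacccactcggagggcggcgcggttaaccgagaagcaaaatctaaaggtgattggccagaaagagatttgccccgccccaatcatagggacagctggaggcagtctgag
Slc7a11: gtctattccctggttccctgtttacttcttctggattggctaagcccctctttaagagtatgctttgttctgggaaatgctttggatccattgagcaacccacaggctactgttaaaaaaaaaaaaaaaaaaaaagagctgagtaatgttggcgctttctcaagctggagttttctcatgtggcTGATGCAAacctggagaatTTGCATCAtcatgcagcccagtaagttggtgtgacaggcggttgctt
Asns: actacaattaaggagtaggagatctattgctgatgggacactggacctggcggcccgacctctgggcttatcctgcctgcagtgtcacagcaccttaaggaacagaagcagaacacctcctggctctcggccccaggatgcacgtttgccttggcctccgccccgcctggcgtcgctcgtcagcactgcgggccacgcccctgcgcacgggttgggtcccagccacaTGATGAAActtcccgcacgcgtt

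These windows are chr2:119350992-119351241 on the plus strand for Chac1, chr3:50443614-50443863 on the minus strand for Slc7a11 and chr6:7693210-7693459 on the minus strand for Asns. Slc7a11 holds the element on each strand, at 66 to 59 and 47 to 40 bases before the start. In Asns it lies 23 to 16 bases before the start and in Chac1 193 to 186. Of the 34 tested members of the list with a window that was searched, 10 held TGATGNAA on either strand (29.4%). So did 3.45% of the 32851 windows searched and 2.51% of the tested genes with a window. A gene was counted if any of its windows held the element. The 10 are Chac1, Asns, Pycr1, Slc7a11, Vldlr, Jdp2 and Herpud1, which rose, Nupr1 and Gars, which were not called, and Aars, which fell. Among all genes with a window, the element was in 3.31% of those called higher and 1.7% of those called lower. Among list members called higher it was in 31.8%, close to the 29.4% of all members. Besides the interferon element below, 2 more elements were searched in the same way. The MYC E-box CACGTG was in 9.68% of 31 members of the MYC and ribosome biogenesis list and 9.85% of tested genes. The E2F site TTTCCCGC was in 7.32% of 41 members of the replication list and 1.99% of tested genes. A match describes the letters and is not evidence of binding.

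Amino acid importers were among the members that rose. Slc7a11, the cystine importer that feeds glutathione synthesis (chromosome 3, 50364936 to 50499087), stood at 44.7, 35.1 and 40.1 CPM in controls and 378, 481, 429 and 403 CPM with nifedipine. Every nifedipine library lay far above every control, and the log2 fold change was 3.40 ± 0.10 (adjusted p = 5.65e-14). Slc7a3, which carries cationic amino acids, rose from 1.17 ± 0.275 to 26 ± 4.76 CPM. Chac1, which breaks down glutathione (chromosome 2, 119351242 to 119354326), read 2.02, 2.45 and 2.24 CPM and 29.4, 26.2, 30.8 and 30.4 CPM, and the pseudokinase Trib3, which feeds back on ATF4, rose by 3.72 ± 0.16 (adjusted p = 1.16e-11).

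Enzymes and regulators of the same list rose too. The alanine aminotransferase Gpt2 went from 7.78 ± 1.65 to 46.8 ± 3.4 CPM and the lipoprotein receptor Vldlr from 11.4 ± 4.92 to 84.6 ± 3.66 CPM. Asns, which makes asparagine, rose from 100.3 ± 7.91 to 208 ± 10.6 CPM (log2 fold change 1.05 ± 0.07). The mTORC1 inhibitor Sesn2 rose by 1.80, the transcription factors Atf5 and Jdp2 by 2.22 and 1.71, the secreted factor Gdf15 by 3.93 and the folate enzyme Mthfd2 by 0.78. Atf4 itself rose from 104 ± 1.71 to 161 ± 6.78 CPM (0.63). The serine synthesis genes Psat1 and Phgdh read -0.07 and -0.11 and were not called.

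Chaperones of the endoplasmic reticulum were among the genes that fell. Of 28 genes of the unfolded protein response, 15 were lower and 8 higher (median -0.30), against 24.2% and 25.8% over all genes. The chaperones Hspa5 (BiP), Hyou1 and Hsp90b1 (GRP94) fell by 0.94, 0.87 and 0.83 on the log2 scale, and the disulfide isomerases Pdia6 and Pdia3 by 0.65 and 0.53. Hspa5 read 577, 543 and 539 CPM in controls and 307, 258, 299.7 and 290.2 CPM with nifedipine, with no overlap. Of the sensors, Ern1 (IRE1) rose by 0.71 and Atf6 by 0.48, as did Xbp1, the factor that Ern1 activates by splicing (0.38), and Crebrf (1.74). Herpud1, which stands in both lists, rose by 0.62.

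**Figure D2:**
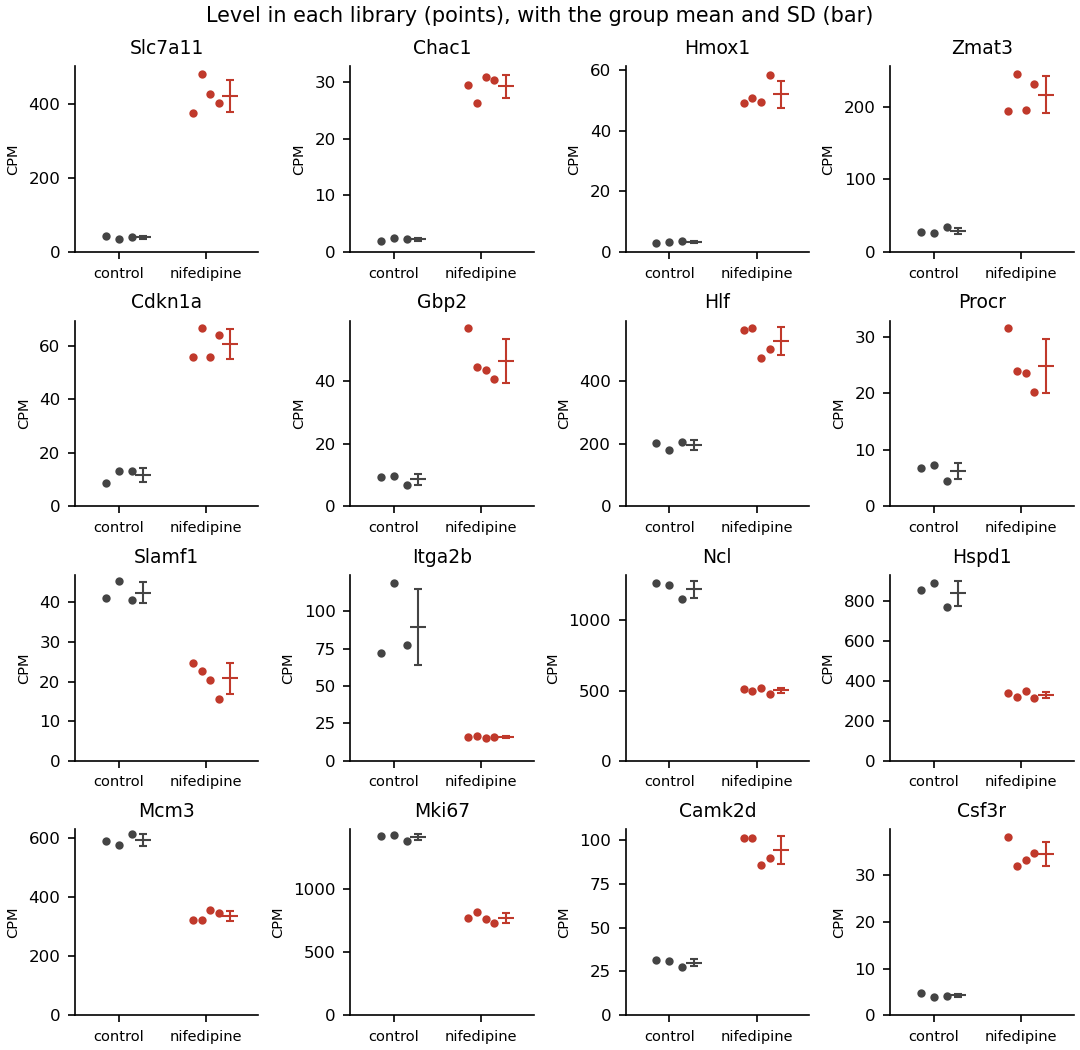
CPM of 16 genes in each of the 3 control (grey) and 4 nifedipine (red) libraries, with the mean and SD beside the points; every y axis starts at 0. The groups do not overlap for any of the 16, and the rises of Slc7a11, Chac1, Hmox1 and Zmat3 start from controls near the foot of the axis.

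Genes of heme breakdown, iron export and iron storage rose. Hmox1, the heme oxygenase that frees iron from heme and a target of the transcription factor NRF2 (chromosome 8, 75093618 to 75100593), stood at 3.12, 3.16 and 3.51 CPM in controls and 49, 50.9, 49.5 and 58.5 CPM with nifedipine (3.99 ± 0.13, adjusted p = 4.63e-13). Slc40a1 (ferroportin), the iron exporter, read 0.751, 1.74 and 2.39 CPM and 31.5, 26.5, 33.1 and 34 CPM (4.30 ± 0.25, adjusted p = 3.08e-10). Neither gene's groups came near each other. The ferritin subunits Fth1 and Ftl1, which store iron, rose from 583 ± 15.9 to 985 ± 69.6 CPM and from 339.7 ± 29.8 to 643 ± 71.4 CPM, and the biliverdin reductase Blvrb by 1.29. Of 23 tested heme and iron genes, 9 were higher and 6 lower (3 with the RPKM total), against 25.8% and 24.2% over all genes. The lower ones include the heme synthesis enzymes Cpox (-0.42) and Alad (-0.42).

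In the NRF2 and thiol list, detoxification genes were among those that rose. Of 37 members, 18 were higher and 6 lower, against 25.8% and 24.2% over all genes. The median was 0.14, and 3 were lower with the offset for exon length. Those higher include the transferase Gstm1 (2.51), the quinone reductase Nqo1 (1.48), both subunits of the enzyme that starts glutathione synthesis, Gclm (0.70) and Gclc (0.37), and Srxn1 (0.91). Catalase (Cat) went from 204, 184 and 186 CPM to 346, 348, 354 and 411 CPM. The autophagy receptor Sqstm1 (p62) rose by 0.76. Prdx3, the peroxiredoxin of mitochondria, fell by 0.53 (by 0.35 with the offset for exon length), and Tkt of the pentose phosphate pathway by 0.41, while Txnrd1 read -0.04 and Gsr 0.01 and were not called.

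Most targets of p53 rose, and its own transcript was lower. Of 32 tested targets, 24 were higher and 2 lower (Trp53 itself at -0.30 and its phosphatase Ppm1d at -0.25), with a median of 0.84. Both lower calls were lost with the RPKM total and without control 3 (adjusted p = 0.0508 and 0.0983), and that of Ppm1d also without control 1, nifedipine 1 or nifedipine 2. Zmat3, an RNA-binding protein (chromosome 3, 32334792 to 32365665), read 28.2, 25.7 and 34 CPM in controls and 195, 245, 196 and 232 CPM with nifedipine (2.89 ± 0.11, adjusted p = 2.41e-12). Trp53inp1, which promotes autophagy and cell cycle arrest, read 55.4, 46.6 and 66.8 CPM and 404, 367, 313 and 436 CPM (2.75 ± 0.12, adjusted p = 1.14e-11). For both genes every nifedipine library lay above every control by a wide margin. Cdkn1a, the p21 inhibitor of cyclin-dependent kinases (chromosome 17, 29090979 to 29100722), rose from 8.78, 13.3 and 13.2 CPM to 55.7, 66.4, 55.9 and 64 CPM (2.37 ± 0.14).

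The rest of the p53 list covered feedback, arrest, repair and death. The AKT inhibitor Phlda3 rose by 3.48, the death receptor family member Eda2r by 3.01, the kinase Plk2 by 2.77 and cyclin G1 (Ccng1) by 1.28, from 250.2 ± 2.82 to 606 ± 56.2 CPM. The inhibitors of p53, Mdm2 and Mdm4, rose by 0.87 and 0.81, and the repair genes Xpc and Polk by 1.11 and 0.74. Of the 18 tested BCL2 family and IAP genes, 6 were higher and 3 lower, against 25.8% and 24.2% over all genes. The killer genes Bbc3 (PUMA), Bcl2l11 (BIM) and Bax rose by 1.31, 0.78 and 0.46, and so did the protective Bcl2l1 (BCL-XL, 0.41). Bak1 fell by 0.83, whereas Bcl2 at -0.10 and Mcl1 at -0.04 were not called.

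**Figure D3:**
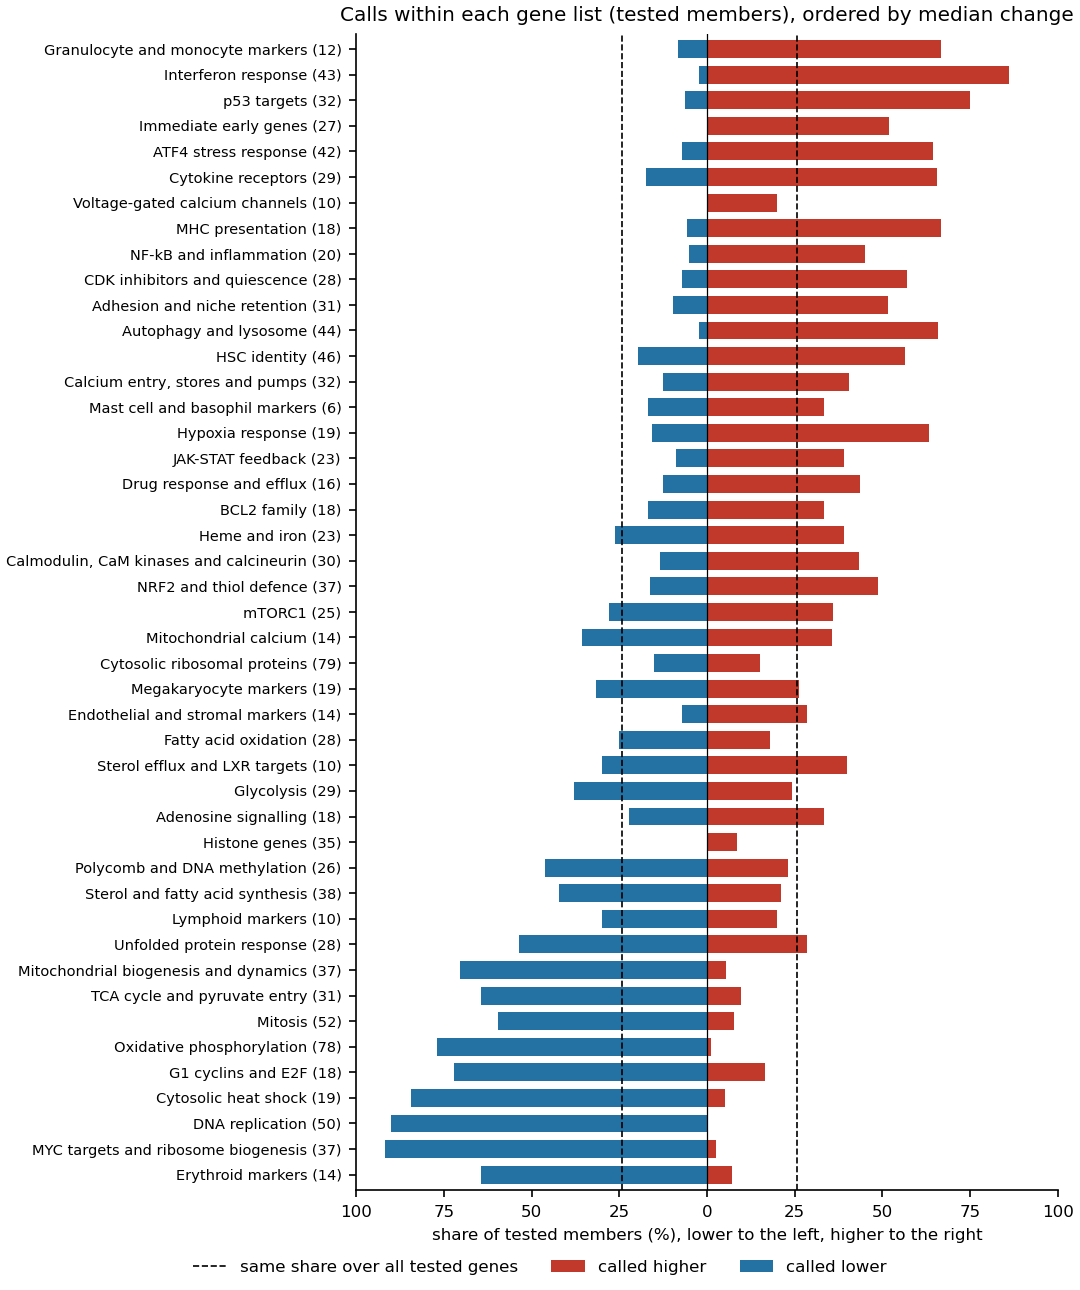
For each of 45 gene lists, the bars give the share of tested members called higher (red, to the right) and lower (blue, to the left), ordered by the list's median log2 fold change, with the number of tested members in brackets. Dashed lines mark the shares over all tested genes, 25.8% higher and 24.2% lower; the interferon, p53 and ATF4 lists lie far to the right and the ribosome biogenesis, replication and oxidative phosphorylation lists far to the left.

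Most genes that build ribosomes fell. Of 37 tested targets of MYC and genes of ribosome biogenesis, 34 were lower and 1 higher (median -0.77), and their summed level was 10859 to 11204 CPM in controls and 6063 to 6507 CPM with nifedipine. Nucleolin (Ncl, chromosome 1, 86344719 to 86359455), which processes ribosomal RNA, read 1265, 1250 and 1152 CPM and 511, 498, 520.4 and 476 CPM (-1.29 ± 0.05, adjusted p = 9.56e-12). Every nifedipine library lay below every control. The nucleolar Npm1 fell from 1400 ± 91.9 to 684 ± 55.6 CPM, the spermidine synthase Srm by 1.24, the pyrimidine enzyme Cad by 1.11, Mybbp1a by 1.03 and fibrillarin (Fbl) by 1.00. Myc itself did not follow its targets, at 89, 71.3 and 83.8 CPM in controls and 74.6, 73.8, 98.5 and 81.6 CPM with nifedipine (0.01 ± 0.10, adjusted p = 0.929). Mycn was the member that rose, from 219 ± 18.6 to 337 ± 19.9 CPM.

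Most cytosolic chaperones fell too. The RNA helicase Ddx39 fell by 1.52, the import receptor Kpnb1 by 0.90 and the histone chaperone Anp32e by 1.08, all among the 10 falls with the smallest p. Cytosolic chaperones fell in 16 of 19 tested members (median -0.57), and their summed level was 12249 to 13306 CPM in controls and 6851 to 7906 CPM with nifedipine. Hsp90aa1, the inducible HSP90, read 2647, 2482 and 2502 CPM and 1141, 1016, 1268 and 1167 CPM (-1.15 ± 0.06, adjusted p = 1.51e-10). Its constitutive partner Hsp90ab1 fell by 0.68, Hspa8 by 0.80, and the co-chaperones Stip1 and Fkbp4 by 1.06 and 0.86. The factor that drives them, Hsf1, fell by 0.43. The 1 call upward in the list, Dnajb4 at 0.23, was lost in 7 of the 16 alternative settings, among them leaving out control 2 or 3 or nifedipine 1, 2 or 3.

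The ribosome's own proteins did not share this fall. Of 79 cytosolic ribosomal protein genes, 12 were higher and 12 lower, below the 25.8% and 24.2% over all genes, with a median of 0.02 and a summed level of 38335 to 40013 CPM in controls and 36085 to 40977 CPM with nifedipine. These transcripts are short, and their direction depended on the handling of length. With an offset for exon length, 49 were higher and 3 lower, at a median of 0.20. Rps27 (0.63) and Rps24 (0.25) rose in both fits. Without nifedipine replicate 2, 25 were higher, and with only genes at 10 CPM or more, 21.

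Most mitochondrial energy genes fell. Of 78 tested subunits of oxidative phosphorylation, 60 were lower and 1 higher (median -0.50), and their summed level fell outside the control range of 9556 to 9972 CPM, to 6287 to 7098 CPM. With an offset for exon length, 45 were lower and 5 higher. Cytochrome c (Cycs, chromosome 6, 50562563 to 50566474), which carries electrons to complex IV, read 202, 185 and 206 CPM and 92.7, 85.9, 109 and 105 CPM (-1.01 ± 0.08, adjusted p = 1.45e-08). Subunits of ATP synthase fell by 0.93 (Atp5g3), 0.79 (Atp5b) and 0.67 (Atp5a1), Cyc1 of complex III by 1.01, Sdhd of complex II by 0.75 and Ndufs1 of complex I by 0.70. The exception was Cox7a2l, a factor that joins respiratory complexes, which rose by 0.65.

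The matrix enzymes and the import and folding machinery went the same way. Of 31 genes of the tricarboxylic acid cycle and pyruvate entry, 20 were lower and 3 higher (1 higher without control 2 or without nifedipine 4), with Ogdh at -0.80, Mdh2 at -0.78 and citrate synthase (Cs) at -0.60. Of 37 genes of mitochondrial biogenesis and dynamics, 26 were lower and 2 higher. Hspd1 (HSP60), the chaperone of the matrix (chromosome 1, 55077834 to 55088217), read 851, 890.0 and 769 CPM and 337, 318, 349 and 313 CPM (-1.35 ± 0.06, adjusted p = 2.09e-11). Its partner Hspe1 fell by 1.07, the adenine nucleotide carrier Slc25a5 by 0.94, the prohibitins Phb2 and Phb by 0.86 and 0.82, and the import pore Tomm40 by 1.04. The regulators Nrf1 and Pprc1 fell by 0.55 and 0.70, while Ppargc1a (PGC-1alpha) stood at 2.3 CPM or less in every library and was not called. Features of the mitochondrial genome had 0 reads in every table and were not analysed here.

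Glycolysis genes split. Of 29 glycolysis genes, 11 were lower and 7 higher (24.2% and 25.8% over all genes). The lactate and pyruvate carrier Slc16a1 fell by 1.08, Tpi1 by 0.60 and Eno1 by 0.49, whereas Pkm at -0.01 and Aldoa at 0.01 were not called. Aldoc rose from 21.5 ± 3.82 to 50.5 ± 3.81 CPM, Ldhb by 1.00 and Pdk2, which holds pyruvate back from mitochondria, by 1.36. Of 19 genes of the hypoxia response, 12 were higher and 3 lower, with the mTORC1 inhibitor Ddit4 up by 1.57 and Mxi1, an antagonist of MYC, by 0.73, and Hif1a down by 0.33.

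Genes of fatty acid synthesis were among those that fell. Of 38 genes of sterol and fatty acid synthesis, 16 were lower and 8 higher, against 24.2% and 25.8% over all genes. When all 4 groups were fitted together, 4 were higher. Stearoyl-CoA desaturase 1 (Scd1) fell from 779.8 ± 20 to 399 ± 31.1 CPM, fatty acid synthase (Fasn) from 929 ± 29.5 to 526 ± 33.9 CPM, and Acaca and Elovl6 by 0.60 and 0.65. Srebf1, which drives them, fell by 0.31. On the sterol side Fdps fell by 0.62, Insig1 rose by 0.27, and Hmgcs1 at 0.02 was not called. The sterol exporters Abca1 and Abcg1 fell by 2.47 and 0.66, while Npc1 and Npc2, which move cholesterol out of lysosomes, rose by 0.51 and 0.34. For fatty acid oxidation, Cpt1a, the gate of mitochondrial import, rose by 0.61 and Etfb fell by 0.77. In that list 5 of 28 were higher and 7 lower (4 lower with the RPKM total), against 25.8% and 24.2% over all genes.

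Most lysosome and autophagy genes rose. Of 44 tested members, 29 were higher and 1, Atg3, lower (median 0.36). Mitf, a factor of the family that drives lysosomal genes, went from 4.47, 2.91 and 4.19 CPM to 23.9, 16, 17.8 and 20.2 CPM. Map1lc3b (LC3B), which coats the growing autophagosome, rose by 0.79, the mitophagy kinase Pink1 by 1.04, the lysosomal membrane protein Lamp2 by 0.61, and the hydrolases Ctsl and Ctsa by 0.94 and 0.59. The initiating kinases Ulk1 and Ulk2 rose by 0.46 and 0.50. In the mTORC1 list, 9 of 25 were higher and 7 lower, against 25.8% and 24.2% over all genes, with Eif4ebp1 at 0.77 up, Akt1 at -0.52 and Rps6kb1 at -0.34 down, and Mtor at -0.05 not called.

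Genes of DNA synthesis were lower with nifedipine. Of 50 tested replication genes, 45 were lower and 0 higher (median -0.60; 1 was higher with the offset for exon length), and the other 5 were not called. Mcm3, a subunit of the replicative helicase (chromosome 1, 20803014 to 20820213), read 590.0, 577 and 615 CPM and 322, 323, 357 and 346 CPM (-0.82 ± 0.06, adjusted p = 2.77e-09), with no overlap. Ribonucleotide reductase (Rrm1) fell by 0.68, the chromatin assembly factor Chaf1a by 0.81, Uhrf1 by 0.80, the licensing factors Cdc6 and Orc1 by 0.94 and 0.94, and geminin (Gmnn) by 0.97. Among 18 G1 genes 13 were lower and 3 higher. Cdk6, the kinase that takes HSCs out of rest, went from 1239 ± 26.5 to 739.8 ± 82.8 CPM, cyclin E1 (Ccne1) fell by 1.37 and E2f1 by 0.64. The D cyclins moved in opposite directions: Ccnd1 rose from 35, 37.7 and 26.1 CPM to 107, 117, 118 and 109.5 CPM, Ccnd2 rose by 0.38 and Ccnd3 fell by 0.26, a call lost without control 3 (adjusted p = 0.081), with the RPKM total and with the offset for exon length.

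The mitosis genes were lower in part. Of 52 tested, 31 were lower and 4 higher (median -0.46). When all 4 groups of the study were fitted together, with 1 estimate of the spread that includes the fresh libraries, 15 were lower and 1 higher, and without control 2, 7 were higher. Mki67 (Ki-67), a protein of cycling cells (chromosome 7, 135689788 to 135716409), read 1422, 1429 and 1382 CPM and 770.4, 816, 762 and 727 CPM (-0.88 ± 0.05, adjusted p = 3.3e-10), with no overlap. Ccnb2 fell by 1.18, Cdc20 by 1.28, the centromere histone Cenpa by 1.39 and Bub1b by 1.06. The mitotic kinase Cdk1 was not called, at 74, 93.6 and 76.8 CPM and 82.2, 80.9, 72.4 and 98.8 CPM (0.04, adjusted p = 0.783). Ect2, which places the cleavage furrow, rose by 0.71. Top2a, at 418, 548 and 383 CPM in controls and 615, 527, 532 and 606 CPM with nifedipine, was called higher (0.34), although control 2 lay above 2 of the nifedipine libraries, and the call was lost without control 3 (adjusted p = 0.0565), with DESeq2 and with all 4 groups in 1 fit. Of 35 tested histone genes, 3 were higher and 0 lower, below the 25.8% and 24.2% over all genes. Without control 2, 6 were higher, and without control 1, 2 were lower. The median of this list was -0.13 and ranged from -0.33 to 0.40 under the alternative settings. The summed level of the histone genes ranged from 163 to 332 CPM among the controls alone.

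More genes of rest and arrest were higher than lower. Of 28 tested CDK inhibitors and quiescence genes, 16 were higher and 2 lower (median 0.40), against 25.8% and 24.2% over all genes. Txnip, an inhibitor of glucose uptake and thioredoxin (chromosome 3, 96557957 to 96561857), read 77.6, 79 and 80.8 CPM and 249.8, 252, 254 and 224 CPM (1.63 ± 0.07, adjusted p = 9.56e-12). Foxo3 and Foxo1, factors that keep HSCs at rest, rose by 0.89 and 1.12, and their targets Ccng2 and Sesn3 by 1.33 and 1.21. The antiproliferative Btg1 and Tob1 rose by 0.62 and 1.00, and the retinoblastoma family members Rbl2 and Rb1 by 0.48 and 0.33. Cdkn1c (p57), which is high in resting HSCs, was low in culture, at 7.24, 6.74 and 7.46 CPM and 4.63, 4.94, 4.84 and 4.41 CPM (-0.60, adjusted p = 0.0279), and its fall was lost with the replicate block (adjusted p = 0.0641), without control 1 or 3 and without nifedipine 1 or 4. The 2 lower calls of the list, Cdkn1c and Trp53, were both lost with the RPKM total.

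Stem cell genes were mostly higher with nifedipine, with exceptions among factors shared with the megakaryocyte and erythroid lineages. Of 46 tested HSC genes, 26 were higher and 9 lower (median 0.35), against 25.8% and 24.2% over all genes. Hlf (chromosome 11, 90336535 to 90390917) read 202, 179 and 207 CPM in controls and 563, 571, 476 and 505 CPM with nifedipine (1.43 ± 0.07, adjusted p = 1.11e-10). Procr read 31.5, 24, 23.5 and 20.2 CPM with nifedipine against the control values given above (1.99 ± 0.19, adjusted p = 1.05e-07), and Ly6a 36.7, 29.9, 28.4 and 37.8 CPM (2.15 ± 0.14, adjusted p = 2e-09). All nifedipine libraries lay above all controls for these 3 genes. Mecom rose by 0.83, Kit by 0.79, Fgd5 by 0.57, the adhesion molecule Alcam by 1.81, the niche factor Angpt1 by 0.70 and its receptor Tek by 0.62, and Meis1 by 0.36.

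**Figure D4:**
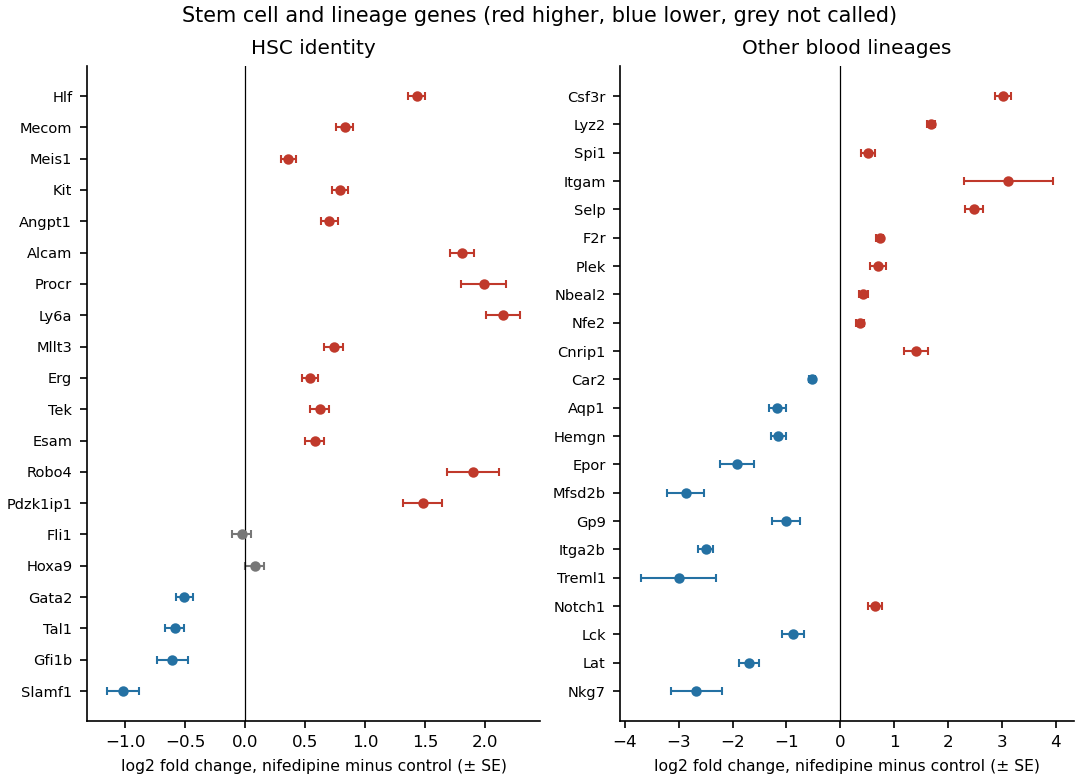
Log2 fold change, nifedipine minus control, with its SE for genes of HSC identity (left) and of other blood lineages (right); red is called higher, blue lower, grey not called. Hlf, Procr and Ly6a stand to the right and Slamf1 to the left, while the erythroid and platelet genes Mfsd2b, Itga2b and Treml1 lie far to the left of the myeloid genes Csf3r and Lyz2.

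The HSC genes that fell include a surface marker widely used to sort HSCs. Slamf1 (CD150) read 41, 45.4 and 40.7 CPM and 24.8, 22.6, 20.3 and 15.7 CPM (-1.02 ± 0.13, adjusted p = 4.64e-06), with no overlap. Gata2 fell by 0.51, Tal1 by 0.59 and Gfi1b by 0.61. Fli1 at -0.03 and Hoxa9 at 0.08 were not called. Vwf, the clotting factor of platelet-biased HSCs, read 182, 231 and 154 CPM and 100.1, 207, 102 and 89.4 CPM (-0.61), and its fall was lost with DESeq2 and without control 2 and without nifedipine 1, 3 or 4.

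A pair of lineage factors had almost no reads in one of the groups. Gata1, the factor of red cell and megakaryocyte fate, had 616 reads over the controls, 132 to 301 in each, and 2 reads over the nifedipine libraries, both in 1 library. The ratio of control to nifedipine was 395, with a 95% exact counting interval of 109 to 3273. Gfi1, a repressor that restrains HSC division and drives neutrophil fate, had 0 reads in every control and 69 to 186 reads in each nifedipine library, which is at least 125-fold higher against a floor of 3 reads over the controls. In the fresh untreated libraries Gata1 had 0 to 4 reads and Gfi1 204 to 1008. Without molecular identifiers on the reads, such intervals and floors describe counting error alone.

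Most erythroid genes fell. Of 14 tested erythroid genes 9 were lower and 1 higher (median -0.93), with Mfsd2b at -2.87, the erythropoietin receptor Epor at -1.92, Aqp1 at -1.17 and Hemgn at -1.15. Of 19 tested megakaryocyte genes 6 were lower and 5 higher (3 lower among genes at 10 CPM or more), against 24.2% and 25.8% over all genes. Itga2b (CD41, chromosome 11, 102453297 to 102469883), the integrin of platelets, read 72.2, 119 and 77.1 CPM and 15.6, 16.3, 15.2 and 16.1 CPM (-2.50 ± 0.14, adjusted p = 2.19e-10), with no overlap. Pf4 fell by 1.56 and by 0.85 without control 2, and Treml1 by 3.00. Treml1 read -2.31 without control 2 (adjusted p = 0.0252), -4.09 without nifedipine 4 and -3.84 with the replicate block. Selp (P-selectin), in contrast, rose from 29.6, 40.3 and 17.1 CPM to 170.2, 167, 157 and 152 CPM, and the thrombin receptor F2r by 0.73.

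Of 12 tested granulocyte and monocyte genes 8 were higher and 1, Calr, lower (4 higher among genes at 10 CPM or more). Over all genes 25.8% were higher and 24.2% lower. Csf3r, the receptor for G-CSF, read 4.67, 3.93 and 4.1 CPM and 38.1, 32, 33.2 and 34.7 CPM (3.02 ± 0.14, adjusted p = 2.73e-11). Lysozyme (Lyz2) rose from 63.3 ± 7.35 to 202 ± 9.34 CPM and Spi1 (PU.1) from 21.1 ± 3.5 to 30 ± 2.15 CPM. The summed level of the myeloid list was 904 to 992 CPM in controls and 893 to 1081 CPM with nifedipine, and Calr, a chaperone of the endoplasmic reticulum in most cells, supplied most of it. Without Calr, a choice made after seeing the values, the list summed to 102, 117 and 132 CPM in the controls. With nifedipine it summed to 359, 374, 387 and 408 CPM, with no overlap. Most of this remaining sum came from Lyz2 and from Gstm1, which is also on the NRF2 list. Gstm1 read 13.8 to 17.2 CPM in controls and 80.9 to 105 CPM with nifedipine. Prtn3 and Irf8 were not called, so the sum does not show a rise across the list. Among 10 tested lymphoid genes the T cell signalling genes Lat and Lck and the cytotoxic Nkg7 fell by 1.69, 0.88 and 2.67, and Notch1 rose by 0.65. Whether other cells contributed to these values was not tested.

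Most interferon-stimulated genes rose. Type I interferons signal through a transcription factor complex that binds an element searched here as GAAA, 2 bases of any kind and GAAA, and the genes it switches on restrict viruses and present antigen. Of 43 tested members, 37 were higher and 1, Ifit2 at -0.25, lower (median 1.02), and the call of Ifit2 was lost in 11 of the 16 alternatives, among them the removal of any 1 library except nifedipine 1. The windows of Gbp2, Rsad2 and Ifit1 are shown because these genes rose and hold the element (RefSeq, GRCm38.p6, 250 bases before the start, capitals as above).
Gbp2: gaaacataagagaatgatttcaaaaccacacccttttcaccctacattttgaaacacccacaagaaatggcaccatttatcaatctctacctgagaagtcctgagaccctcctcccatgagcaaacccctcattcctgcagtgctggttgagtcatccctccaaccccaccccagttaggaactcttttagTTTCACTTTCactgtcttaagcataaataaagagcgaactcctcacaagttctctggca
Rsad2: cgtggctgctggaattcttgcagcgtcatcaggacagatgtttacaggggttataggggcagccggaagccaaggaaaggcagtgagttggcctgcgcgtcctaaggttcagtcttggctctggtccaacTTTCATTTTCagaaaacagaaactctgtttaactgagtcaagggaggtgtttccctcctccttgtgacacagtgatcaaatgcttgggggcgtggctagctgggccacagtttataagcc
Ifit1: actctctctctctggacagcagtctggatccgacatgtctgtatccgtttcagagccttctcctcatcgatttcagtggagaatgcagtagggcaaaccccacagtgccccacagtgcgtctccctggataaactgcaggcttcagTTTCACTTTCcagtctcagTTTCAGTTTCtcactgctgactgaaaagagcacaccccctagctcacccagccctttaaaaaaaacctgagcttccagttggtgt

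They lie at chr3:142620413-142620662 (plus strand), chr12:26456453-26456702 (minus strand) and chr19:34640639-34640888 (plus strand). Ifit1 holds the element at 104 to 95 and again at 85 to 76 bases before the start, where the capitals read as the reverse complement. Of the 32 tested members with a window, 15 (46.9%) held this element on either strand. It was in 2.98% of the windows searched and in 3.16% of the tested genes with a window. Of the 15, 12 rose and 3, Ifit3, Ifitm2 and Isg15, were not called. Among list members called higher it was in 46.2%, close to the 46.9% of all members. Over all genes with a window it was in 4.46% of those called higher and 3.07% of those called lower.

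Effector and sensor genes rose. Gbp2, a GTPase that attacks intracellular pathogens, read 9.25, 9.85 and 6.73 CPM and 56.9, 44.5, 43.6 and 40.9 CPM (2.43 ± 0.15, adjusted p = 8.12e-10). Trim30a, an interferon-induced ubiquitin ligase (chromosome 7, 104409025 to 104465193), read 99.2, 109 and 99 CPM and 331, 347, 321 and 375 CPM (1.75 ± 0.07, adjusted p = 5.74e-12), and its neighbour in the family Trim30d rose by 2.28. The 2 are closely related copies, so reads may be split between them. Ifi44 rose by 2.88, Iigp1 by 2.62, Rtp4 by 2.28, Ifit1 by 3.57 and Rsad2 (viperin) by 1.93. Gbp6 had 0 reads in the controls and 38 to 195 in each nifedipine library, at least 111-fold higher against the floor of 3 reads. The sensor Ddx58 (RIG-I) rose by 1.36, whereas Isg15 was near the foot of the scale at 0.277, 0.613 and 0 CPM and 1.88, 0.494, 0.902 and 0.367 CPM.

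Genes of antigen presentation and cytokine receptors mostly rose. Of 18 tested genes of MHC presentation 12 were higher and 1, H2-Q7, lower (median 0.45), with H2-T23 at 1.18, Tapbp at 0.81, H2-K1 at 0.49 and the class I activator Nlrc5 at 0.57. With scaffold copies kept apart, 5 members could be tested under their own symbol, and 3 were higher. MHC genes resemble each other, so their reads are uncertain. Of 29 tested cytokine receptors 19 were higher and 5 lower (2 lower with the RPKM total, 3 without control 1). Beside both lists, the shares over all genes were 25.8% higher and 24.2% lower. The shared beta chains Csf2rb2 and Csf2rb rose by 2.19 and 0.92, the TGF-beta receptors Tgfbr2 and Tgfbr1 by 1.04 and 0.57, the IL-6 receptor Il6ra from 0.736 ± 0.505 to 7.73 ± 1.45 CPM (3.34, or 4.08 without control 1), and Ifngr1 and Ifnar1 by 0.56 and 0.42. The leukemia inhibitory factor receptor Lifr fell from 8.1 ± 2.19 to 0.791 ± 0.527 CPM.

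Some inflammation and feedback genes rose. Of 20 NF-kB genes 9 were higher and 1 lower (0 lower when control 1, control 2 or nifedipine 1, 2 or 4 was left out, with the RPKM total, the exon length offset or all 4 groups in 1 fit, or among genes at 10 CPM or more, and 2 lower without nifedipine 3 or with DESeq2), led by the prostaglandin synthase Ptgs2 (COX-2), which read 9.61, 9.54 and 4.53 CPM and 28.8, 41.5, 44.1 and 35.2 CPM, by Traf1 (2.05) and by Rel (0.90). Nfkb1 at 0.07 and Rela at 0.02 were not called. In the JAK-STAT list 9 of 23 were higher and 2 lower (1 lower without control 3, without any 1 nifedipine library, with the RPKM total, with all 4 groups in 1 fit or among genes at 10 CPM or more), with Socs2 and Sh2b3, which damp cytokine signals, up by 0.71 and 0.81. Of 31 adhesion and niche genes 16 were higher and 3 lower. Beside each of these lists, the shares over all genes were 25.8% higher and 24.2% lower. The tetraspanin Cd81 rose by 1.13 and the beta 2 integrin Itgb2 by 0.96, and Cxcr4, the receptor that holds HSCs in the marrow, fell from 64.1, 62.4 and 65 CPM to 48.8, 35.3, 46.9 and 37 CPM (-0.60 ± 0.11).

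Transcripts of the drug's own target were scarce. Of 22 genes of voltage-gated calcium channels and their regulators, 10 passed the filter on low counts, 2 were higher and 0 lower, below the 25.8% over all genes. The pore subunits of L-type channels were near 0: Cacna1c read 1.42, 1.23 and 1.41 CPM and 2.19, 1.97, 2.28 and 2.02 CPM (0.64, adjusted p = 0.233), Cacna1d read 0.356, 0.561 and 0.634 CPM and 0.83, 1.54, 0.142 and 0.276 CPM (0.42, adjusted p = 0.692), Cacna1f had 9 reads in all 7 libraries and Cacna1s 0. The 2 that rose are the beta subunit Cacnb2, at 24.2, 35.5 and 21.7 CPM and 55.7, 56.9, 56.6 and 49.5 CPM (1.01 ± 0.14, adjusted p = 6.45e-06), and Gem, a small GTPase that binds beta subunits and keeps channels from the membrane (chromosome 4, 11704447 to 11714993). Gem read 115, 165 and 119.7 CPM and 482, 403, 382 and 432 CPM (1.67 ± 0.11, adjusted p = 1.14e-09). Neither gene's groups overlapped.

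Other routes of calcium changed in both directions. Of 32 tested genes of calcium entry, stores and pumps, 13 were higher and 4 lower, against 25.8% and 24.2% over all genes. Itpr2, a calcium release channel of the endoplasmic reticulum, went from 16.9, 24.9 and 20.6 CPM to 71.5, 60.6, 63.7 and 64.7 CPM (1.65 ± 0.12). The sodium-calcium exchanger Slc8a1 rose by 0.90 and the pump Atp2a3 by 0.43, while Atp2a2 fell by 0.43 and the calcium-binding chaperones Canx and Calr by 0.52 and 0.40. In mitochondria the uniporter pore Mcu rose from 19 ± 1.73 to 25.3 ± 2.06 CPM (0.41, adjusted p = 0.00912), and Letm1 and Vdac1 fell by 0.86 and 0.51. That list held 5 higher and 5 lower of 14 (3 lower without control 3), against 25.8% and 24.2% over all genes.

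Downstream of calcium, more of the genes called were higher than lower. Of 30 tested genes of calmodulin, its kinases and calcineurin, 13 were higher and 4 lower, against 25.8% and 24.2% over all genes. Camk2d read 31.3, 30.9 and 27.5 CPM and 101, 101, 85.5 and 89.8 CPM (1.66 ± 0.09, adjusted p = 2.27e-10), and Camk4 fell from 36.8, 17.4 and 28 CPM to 6.99, 11.1, 7.74 and 12 CPM. The calcineurin subunits Ppp3ca and Ppp3cc rose by 0.80 and 1.51 and the calcineurin-driven factor Nfatc1 by 0.42, and the calmodulin gene Calm3 fell by 0.50. Rcan1, a target of calcineurin and NFAT, was not called, at 11, 12.7 and 8.24 CPM and 11, 11.4, 13.1 and 12.3 CPM. Of 27 tested immediate early genes 14 were higher and 0 lower (1 lower without nifedipine 4), beside the same shares over all genes. Dusp6 read 1.57, Klf6 1.34, Egr1 1.66 and Jun 1.53.

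Chromatin genes leaned downward. Of 26 polycomb and DNA methylation genes 12 were lower and 6 higher (7 lower with the RPKM total), against 24.2% and 25.8% over all genes. Dnmt3b, a de novo DNA methyltransferase (chromosome 2, 153649165 to 153687730), read 248, 255 and 276 CPM and 94.2, 104, 114 and 96.3 CPM (-1.35 ± 0.07, adjusted p = 1.65e-10). The histone methyltransferases moved apart: Ezh2, used in dividing cells, fell by 0.41 and its relative Ezh1 rose from 26.6 ± 2.05 to 55.7 ± 7.19 CPM. Of 18 adenosine genes 6 were higher and 4 lower, against 25.8% and 24.2% over all genes, with the AMP deaminase Ampd3 up by 2.09 and the nucleotidase Entpd1 (CD39) by 1.51, and adenosine kinase (Adk) down by 0.56. In the drug response list, Tsc22d3 (GILZ), a glucocorticoid target, rose by 1.47, its receptor Nr3c1 by 0.68 and the exporter Abcc1 by 0.54, while Fkbp5, another glucocorticoid target, fell by 0.47. Of its 16 tested members 7 were higher and 2 lower (1 lower without control 1, without nifedipine 3, with the RPKM total, with scaffold copies kept apart or with all 4 groups in 1 fit). Over all genes 25.8% were higher and 24.2% lower.

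Among the called genes that were most abundant per length, the actins fell and ferritin rose. Actb (beta-actin) was at 2546 CPM per kilobase of exon in controls and 2006 with nifedipine (-0.34, and -0.21 with the offset for exon length), and Actg1 at 1748 and 906 (-0.95). Ppia and Ptma fell by 0.51 and 0.54 on the log2 scale, and by 0.30 and 0.35 with that offset. Tpt1, a growth-related protein, rose from 964 to 1455 CPM per kilobase, Fth1 from 619 to 1046, Serinc3 from 707 to 895 and the ubiquitin gene Ubb from 553 to 742.

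The change with nifedipine was set beside that at day 4 after 5-FU, a drug that kills dividing blood cells and brings the surviving HSCs into division. The 2 experiments share no library. After 5-FU, 3580 of 13384 tested genes were higher (26.7%) and 3185 lower (23.8%). Of 12579 genes tested in both, 2030 were lower with nifedipine and higher after 5-FU, which is 66.1% of the former and 57.1% of the latter, and 1533 were higher with nifedipine and lower after 5-FU (47% and 50.7%). A smaller number, 383, were higher in both (11.7% and 10.8%) and 166 lower in both (5.4% and 5.49%). A test of the difference between the 2 effects, as an interaction term over all 15 libraries, called 7792 of 14076 genes.

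**Figure D5:**
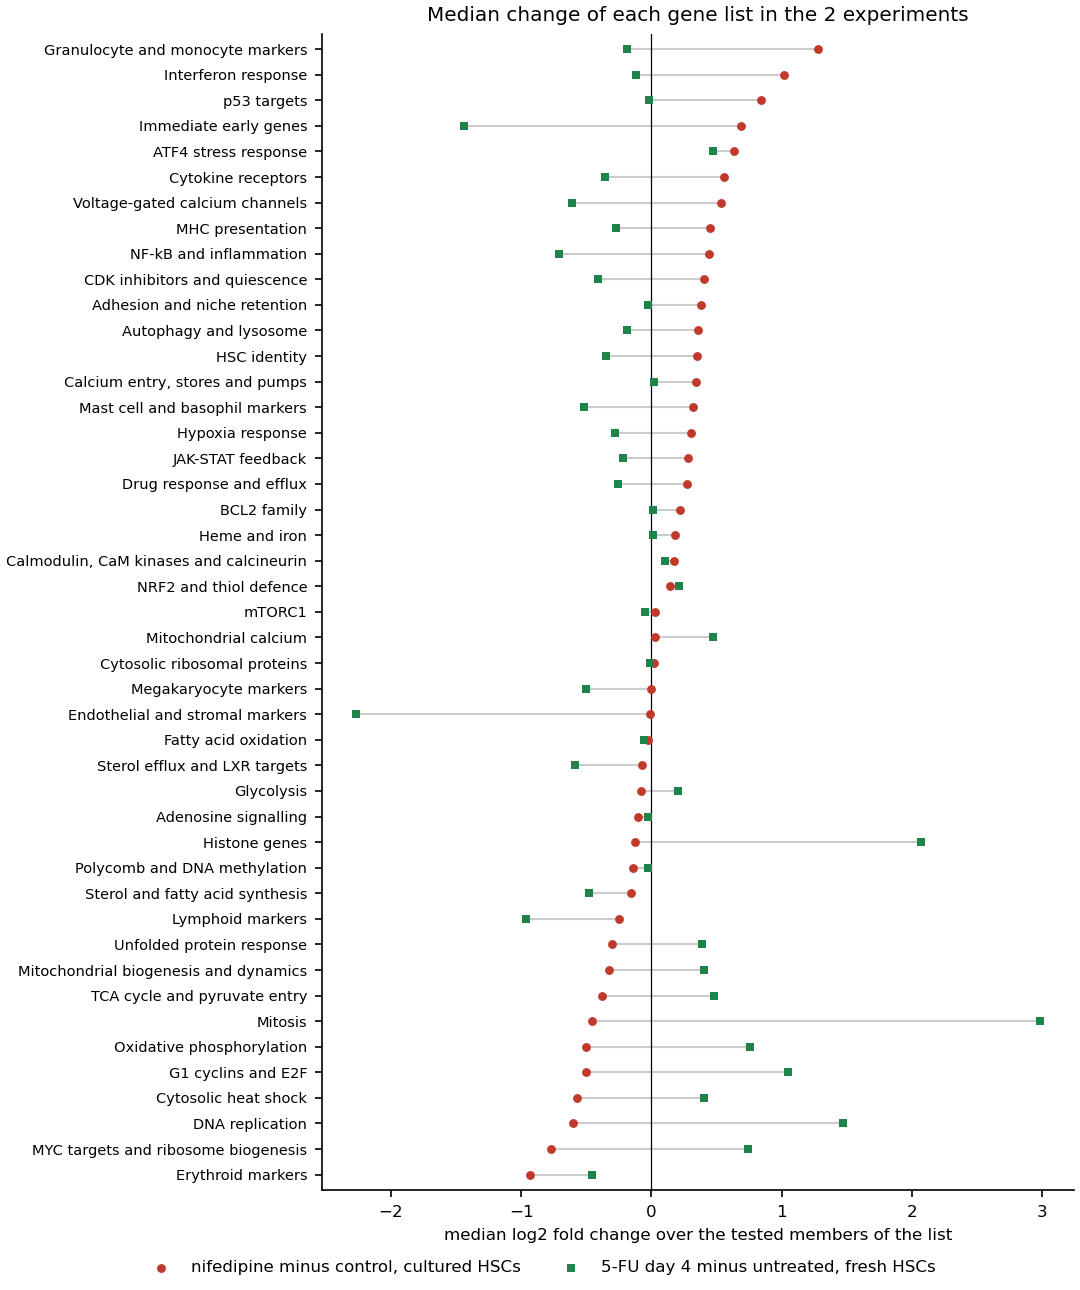
Median log2 fold change over the tested members of each gene list for nifedipine against control in culture (red circles) and for 5-FU day 4 against untreated fresh HSCs (green squares). Mitosis, replication, G1, oxidative phosphorylation and ribosome biogenesis lie left of 0 with nifedipine and right of 0 after 5-FU, while the ATF4 list lies right of 0 in both.

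The growth lists had medians of opposite sign in the experiments. The mitosis list had 52 of 52 members higher and 0 lower after 5-FU (median 2.98, against -0.46 with nifedipine), the replication list 50 of 50 higher (1.47 against -0.60), the ribosome biogenesis list 33 of 37 higher (0.74 against -0.77) and oxidative phosphorylation 72 of 78 higher (0.76 against -0.50). For Ncl the log2 fold change was 0.74 after 5-FU and -1.29 with nifedipine (adjusted p of the difference 5.71e-11), for Mki67 3.03 and -0.88 (2.88e-06), for Hspd1 1.15 and -1.35 (5.71e-11) and for Txnip -1.11 and 1.63 (2.69e-08). The HSC identity list had 2 of 46 higher and 29 lower after 5-FU (-0.35 against 0.35). Immediate early genes had 2 higher and 22 lower of 30 (-1.44 against 0.69).

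The ATF4 list leaned upward in both experiments, and the interferon list did not. The ATF4 list had 20 of 36 members higher after 5-FU and 7 lower (median 0.47), and for Asns the effects, 0.96 after 5-FU and 1.05 with nifedipine, did not pass the test of a difference (adjusted p = 0.592). Trib3 and Slc7a11 did differ: Trib3 read -1.26 after 5-FU against 3.72 (adjusted p of the difference 6.32e-11) and Slc7a11 -0.20 against 3.40 (5.91e-05). Zmat3 and Cdkn1a rose in both, by 2.21 and 1.23 after 5-FU, and by more with nifedipine (adjusted p of the difference 0.00608 and 0.0459). Gem rose by 4.97 after 5-FU, more than with nifedipine (2.73e-09). The interferon list had 7 higher and 14 lower of 46 after 5-FU (median -0.12), against 37 and 1 of 43 with nifedipine.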

How the data were processed

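Each library came from 100 sorted HSCs, whose cDNA was made into a library with Nextera XT, per the labels' protocols. This kit does not mark strand, so reads of a gene and of its antisense partner cannot be told apart. Close copies of a gene share sequence, so their reads may be mixed too. The authors deposited 1 table per library with total exon read counts and RPKM values for each feature, per the file headers. The build was mm10, per the submitters' processing notes, with aligner and counter not given in the sources used here.

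Counts of scaffold copies of a gene were added, which joined 4537 copies of 1923 genes (4.66% to 4.79% of reads) and took 48737 features to 46123 genes, of which 41485 matched RefSeq (GRCm38.p6). A further 31 numbered copies, whose symbol had more than 1 chromosomal entry or an unnumbered one, were kept apart. Of 11523 non-coding genes listed, 57 had a read. CPM values are counts per 1000000 of the TMM-scaled total. The deposited RPKM values served only to recover the read total the authors divided by, which was tried as library size.

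Nifedipine was compared with control by edgeR 4.0.16 in R 4.3.3 (filterByExpr, TMM, quasi-likelihood test, group as the only term, no replicate block, biological coefficient of variation 0.13), with Benjamini-Hochberg adjustment over all genes tested and a call at 0.05 or less. The fresh libraries were fitted in the same way (coefficient 0.202), and the difference between the 2 effects was an interaction term over all 15 libraries. Exact Poisson counts gave the intervals of genes with 3 or fewer reads in a group. DESeq2 1.42.0, limma-voom (limma 3.58.1), other filters, library sizes, a length offset, a replicate block and the removal of each library were tried, and the fits were tested on simulated data. Promoter windows came from a RefSeq table, and those of a single chromosome were left out of the search.

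The members and gene lists were chosen with earlier results of these data known. Named genes are the 15 largest changes in each direction with groups apart, 10 CPM or more in the higher group and no clone name, the 10 with the smallest p, the 10 highest in CPM per kilobase, the 5 members of each list with the smallest p, a list of genes always named, and defining markers. Further names, and the gene families of the closing section, were chosen after their values were seen. A few genes the rule picks are not reported here.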

Additional observations from a re-analysis of the deposited data

Results flagged for a closer look

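In 16 instances among the genes named, 1 of the 4 nifedipine libraries stood apart by Dixon's criterion at the 95% level, which sets the gap to the nearest library against the range of the group. Chance gives this in about 1 in 20 groups, and 333 genes were looked at. The groups of 3 controls were not tested.

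Nifedipine 1 was apart for Col1a2 (9.96 CPM against 3.62 to 4.5 in the other 3), E2f1 (31.6 CPM against 38.2 to 39.3), Fdps (146 against 167 to 171), Iigp1 (47.1 against 23.3 to 26), Mfsd2b (0.743 against 1.9 to 2.08) and Ugt1a6b (8.39 against 12.5 to 12.6). Nifedipine 2 was apart for Mecom (537 against 452 to 466), Nupr1 (12.6 against 9.14 to 9.66) and Vwf (207 against 89.4 to 102). Nifedipine 3 was apart for Blvrb (15.1 against 18.1 to 18.6), Gata1 (0.0949 against 0 in each) and Ptprg (2.09 against 0.437 to 0.689). Nifedipine 4 was apart for Cacnb2 (49.5 against 55.7 to 56.9), Cat (411 against 346 to 354), Gfi1b (34.4 against 23.7 to 24.1) and Txnip (224 against 249.8 to 254).

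The value of Vwf in nifedipine 2 lay within the range of the controls, and the other 3 lay below it. Col1a2 and Nupr1 were not called in the main fit. Nupr1 was called higher among genes at 10 CPM or more (adjusted p = 0.048) and with the offset for exon length (adjusted p = 0.0138). The call of Vwf depended on single libraries as given above, and the other 13 genes were called in every alternative that tested them.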

How the results depend on the processing

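Against 3298 genes higher and 3098 lower, the counts were 3340 and 3182 with DESeq2, 3302 and 3178 with limma-voom, 3313 and 3151 with no filter, 2943 and 2820 among genes at 10 CPM or more, 3183 and 2295 with the RPKM total, 3274 and 3114 with scaffold copies apart, 3376 and 2954 with the length offset and 3277 and 2960 with all 4 groups in 1 fit. Leaving out 1 library gave 2874 to 3109 higher and 2729 to 3026 lower. The median log2 fold change of all genes stayed between 0.00 and 0.06 under these settings. With the replicate block, over the libraries numbered 1 to 3, 3149 were higher and 3107 lower, against 3072 and 2994 in the same libraries without it. Deviations of libraries with the same number correlated at 0.067, 0.101 and 0.015, and those of libraries with unlike numbers at -0.104 to 0.031. The main fit did not take the numbers as pairs, and whether they mark pairs was not tested.

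Of the 303 called genes that are named, 291 kept call and direction under every alternative run. The other 12 lost their call in at least 1 of them, 9 with the RPKM total, and 0 reversed. Of 1440 counts of list members under an alternative, 103 moved by over 1.5 times, 91 of them counts of 6 or fewer. The dose and time of nifedipine, the origin of replicates and transcripts of the mitochondrial genome were not analysed here. With 3 and 4 libraries, a gene that was not called is not shown to be alike in both groups.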

Other observations

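The 27 gene families looked at here were chosen after their values were seen. Of 39 tested proteasome subunits 33 were lower and 2 higher with nifedipine (median log2 fold change -0.62, against 24.2% lower and 25.8% higher over all genes). Psmd2, a base subunit of the cap, read 462, 448 and 444 CPM in controls and 256, 249, 262 and 268 CPM with nifedipine. The 2 that rose, Psmb8 (0.31) and Psmb9 (0.35), are the interferon-induced subunits of the immunoproteasome. All 9 tested subunits of the chaperonin that folds actin and tubulin were lower (median -0.95), with Cct8 at 805, 736 and 699 CPM and 380.3, 351, 391 and 356 CPM. So were all 26 nuclear pore genes (-0.53) and all 20 hnRNP genes, whose proteins package nascent RNA (-0.49). Of 31 SR and snRNP splicing factors 29 were lower and 0 higher (-0.54), of 23 importins and exportins 20 and 0 (-0.39), and of 48 initiation factor genes 36 and 4 (-0.43). Mitochondrial ribosomal proteins were lower in 57 of 77 and higher in 0 (-0.47). Purine synthesis genes were lower in 9 of 11 and higher in 1, with Ppat, which starts the pathway, down by 0.61. Among cytosolic tRNA synthetases 12 of 20 were lower, with Vars down by 0.82, and Cars, for cysteine, was the 1 that rose (0.52).

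Other families leaned upward. Of 341 tested Zfp zinc finger genes 123 were higher and 22 lower (13 lower with the RPKM total, median 0.23), led by Zfp608 at 108, 123 and 131 CPM and 268, 339, 267 and 254 CPM. Cathepsins, proteases of the lysosome, were higher in 9 of 12 and lower in 0 (0.59), V-ATPase subunits, which acidify it, in 8 of 15 with 1 lower (0.27), and glutathione S-transferases in 8 of 14 with 1 lower (0.54). Tetraspanins were higher in 12 of 24 with 1 lower, with Cd53 up from 24.7 ± 4.99 to 84.1 ± 8.31 CPM. Trim genes were higher in 25 of 44 and lower in 3 (0.47), and the 3 lower ones are Trim28, a corepressor that zinc finger proteins recruit (-0.61), Trim27 and Trim33, whose call was lost without control 1, without nifedipine 4 and with the RPKM total. Kinesins were higher in 9 of 35 and lower in 8, close to the 25.8% and 24.2% over all genes (5 lower with the RPKM total or without control 2, and 2 with all 4 groups in 1 fit). The 8 lower ones include the mitotic Kif20a (-0.97), and the 9 higher ones the transport motor Kif3c (0.49). The glucose carriers differed in direction, with Slc2a3 down by 0.44 and Slc2a1 up by 0.29, a call lost without control 2 (adjusted p = 0.0566). Slc1a4, which carries serine and alanine, rose from 31.7 ± 5.52 to 91.3 ± 2.2 CPM.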
